A study of Mus musculus with 28 samples.

Results

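The mouse mitochondrial chromosome carries 37 genes, and all of them had a row among the 94480 transcripts of the expression table. They were chosen by position alone, as every transcript that GENCODE M21 (GRCm38) places on chromosome M: 13 mRNAs, 2 rRNAs and 22 tRNAs. The data were polyA RNA-seq values from mouse testis, flow-sorted male germ cells and ovary, given as RPKM, which is reads scaled to transcript length and to the mapped reads of the library. The study made them to ask how loss of Csmd1, a complement regulatory protein, affects the gonads. In all, 28 libraries came from 13 mice.

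Wildtype (WT) mice and Csmd1 knockout (KO) mice were siblings, labelled as strain C57BL/6. According to the methods, the line had a mixed 129SvEvBrd and C57BL/6 background, and a lacZ and neo cassette took the place of exon 1 and some of the intron after it in every cell of the null mice. No mouse was treated. Sorted stages were named from their Hoechst gates, R5 for spermatogonia, R7 for primary spermatocytes, R6 for secondary spermatocytes and R4 for spermatids. WT mice 178 and 648 gave all 4 stages and WT mouse 351 gave spermatids. KO mouse 544 gave all 4 stages, 286 all but primary spermatocytes, 550 both spermatocyte stages, and 613 and 614 primary spermatocytes. Whole testis came from 2 WT mice (178, 648) and 5 KO mice (214, 269, 273, 286, 308), and whole ovary from 1 WT mouse. Sorted males were young adults by the methods, and the sample list gave 40 days for mice 178 and 351. The paper also describes whole testis RNA from both sexually immature and mature mice. No age was found for the other mice, so which whole testes were immature is not known here. A mouse was the unit of replication, and for a mouse with both kinds of library 1 testis was kept whole while the other was sorted.

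Mitochondrial DNA is a small circle that is transcribed from both strands into long precursors. The tRNAs lie between most of the mRNAs and rRNAs, and cutting them out releases the neighbouring transcripts, most of which then receive a poly(A) tail. All of the encoded proteins are membrane subunits of the respiratory chain and ATP synthase, and every other factor that copies, transcribes or translates this genome is made from nuclear genes. In the testis, germ cell mitochondria change shape and position through meiosis and finally wrap the sperm midpiece.

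Complex I, NADH dehydrogenase, takes its subunits from mt-Nd1, mt-Nd2, mt-Nd3, mt-Nd4, mt-Nd4l, mt-Nd5 and mt-Nd6. Complex III contains cytochrome b from mt-Cytb. Complex IV, cytochrome c oxidase, has its core from mt-Co1, mt-Co2 and mt-Co3, and complex V, the ATP synthase, has the channel subunit from mt-Atp6 and a small accessory subunit from mt-Atp8. The RNAs of the small and large mitochondrial ribosomal subunits come from mt-Rnr1 and mt-Rnr2. Of the mRNAs, mt-Nd6 alone is encoded on the opposite strand. None of these genes has an intron.

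The sequences show how tightly these rows are packed, which bears on how reads can be told apart. The genes mt-Co3, mt-Nd4 and mt-Cytb each end 1 base past a whole codon, so the stop codon is completed only by the poly(A) tail. The end of mt-Co1, which has a whole stop codon, is shown for comparison. Capitals mark the stop codon or the part of it that is encoded (GRCm38, plus strand, 5′ to 3′).
mt-Co3, chrM:9373-9390: tttattgatgaggatctT
mt-Nd4, chrM:11527-11544: ttacaggcctgacaataT
mt-Cytb, chrM:15271-15288: tactaaaattatatccaT
mt-Co1, chrM:6855-6872: tatgtaaaagtaaaaTAA

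The reading frames of mt-Atp8 and mt-Atp6 share 43 bases of a transcript that holds both, so a read there belongs to each gene. In this stretch the capitals mark the start codon of mt-Atp6 and the stop codon of mt-Atp8.
mt-Atp8 and mt-Atp6, chrM:7927-7969, plus strand: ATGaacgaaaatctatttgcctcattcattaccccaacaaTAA

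The tRNA with the most reads, mt-Ts1 (serine), lies tail to tail against the end of mt-Co1 on the other strand. Capitals mark the 3 bases opposite the end of mt-Co1, and the sequence is written 5′ to 3′ on the minus strand.
mt-Ts1, chrM:6870-6938, minus strand: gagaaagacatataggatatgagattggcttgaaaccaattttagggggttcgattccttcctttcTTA

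Whether reads were counted by strand is not given in the sources used here. Reads of mt-Ts1 and of antisense RNA past the end of mt-Co1, and reads of mt-Nd5 and mt-Nd6 over the 14 bases where they face each other, therefore cannot be told apart.

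Low values fell on whole reads in 27 libraries and gave depths of 23820468 to 61683990 reads (median 45385598). The column of KO mouse 613 had no such steps, and it held no value for any rRNA or tRNA, so those genes were described without it. Libraries also fell into 4 sets that lacked values for the same transcripts: 14 libraries of mice 178, 351, 286, 214, 269, 273 and 308, 7 of mice 544, 550 and the ovary, 6 of mice 648 and 614, and 613 alone. The full-length Csmd1 transcript ranged from 0.008 to 0.517 RPKM in 9 sorted WT libraries and from 0 to 2.004 RPKM in 11 sorted KO libraries. Since the deletion removes exon 1, a value over the whole transcript does not check the genotype labels. The sum of 6 spermatogonial markers was highest in the R5 libraries (289 to 648 RPKM against 12.7 to 274 in the other sorted stages). The sum of 6 primary spermatocyte markers did not set R7 apart. It was 352 to 1956 RPKM in R5, 412 to 2362 RPKM in R7, 199 to 1308 RPKM in R6 and 64.2 to 980 RPKM in R4. In mouse 178 it was 1956 RPKM in R5 against 708 RPKM in R7, while in mice 648 and 544 R7 was higher. Single markers of this list differed. Piwil1 was 121 to 437 RPKM in R7, against 5.41 to 48.9 RPKM in R5 and 21.4 to 122 RPKM in R6. Spo11 was 61.0, 31.1 and 55.2 RPKM in R7 of mice 178, 648 and 544, against 19.4, 2.37 and 19.95 RPKM in R5. It was 9.91 RPKM in R7 of mouse 613. In mouse 178 Sycp1, Sycp3, Hormad1 and Dmc1 were higher in R5 than in R7. The sum of 6 spermatid markers (Prm1, Prm2, Tnp1, Tnp2, Acrv1, Spaca1) was 7290 to 7509 RPKM in the spermatids of mice 178, 351 and 544 but 249 RPKM in 286 and 259 RPKM in 648. Prm1, Prm2, Tnp1 and Tnp2 made most of this gap, at 0.579 to 11.5 RPKM in the spermatids of 286 and 648. Spaca1 was 149 and 193 RPKM in 286 and 648, against 279, 142 and 233 RPKM in 178, 351 and 544. Acrv1 was 86.2 and 47.9 RPKM, against 173, 91.0 and 154 RPKM. The marker sum was also 10789 RPKM in the R5 library of mouse 544, against 6.93 to 467 RPKM in the other R5 libraries. In the R5 library of mouse 648, Leydig, stromal and macrophage markers stood at 328, 824 and 56.9 RPKM. Somatic markers were not limited to that library or to R5. Sertoli markers summed to 62.6 to 108 RPKM in the 4 R5 libraries and to 19.7 to 144 RPKM in R6. They summed to 6.49 to 27.5 RPKM in primary spermatocytes and to 5.92 to 46.5 RPKM in spermatids. Stromal markers summed to 132, 214 and 30.2 RPKM in the R5 libraries of mice 178, 286 and 544, and to 11.1 to 136 RPKM in R6. The part of somatic and other marker transcripts in the stage differences was not tested. These libraries were kept, and results are given without them where that changes a call.

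On average, mitochondrial mRNAs took a larger share of reads in spermatogonia than in each later stage, which was not tested on the share. The share is the sum of RPKM times length over the 13 mRNAs, as a percentage of all mapped reads, and needs no depth. In spermatogonia it was 4.10% and 8.78% in WT mice 178 and 648, and 7.76% and 0.850% in KO mice 286 and 544. The last of these is the library with spermatid transcripts, and it lay below every primary spermatocyte library, so the stages overlapped. In primary spermatocytes the share was 1.503% and 4.66% in WT mice 178 and 648, with a lowest, median and highest of 1.26%, 1.83% and 4.66% over all 6 mice. In secondary spermatocytes it was 1.37%, 2.92%, 1.36%, 0.559% and 0.609% in mice 178, 648, 286, 544 and 550. In spermatids it was 0.924%, 0.995%, 2.03%, 2.22% and 0.721% in mice 178, 351, 648, 286 and 544.

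The means were 5.37% ± 3.62 (SD, n = 4) in spermatogonia, 2.25% ± 1.30 (SD, n = 6) in primary spermatocytes, 1.36% ± 0.955 (SD, n = 5) in secondary spermatocytes and 1.38% ± 0.691 (SD, n = 5) in spermatids. Neighbouring stages overlapped in every case. Counting error was far smaller than the spread between mice: in the shallowest library, the spermatids of mouse 351, the Wilson 95% interval of the share was 0.991% to 0.999%, and intervals of this kind cover counting error only. Mouse 648 held the highest share of its stage in spermatogonia and both spermatocyte stages, and mouse 544 the lowest in all 4 stages. In bulk samples, fewer cells of a type and less RNA per cell cannot be told apart, and a share also falls where other RNA increases.

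**Figure D1:**
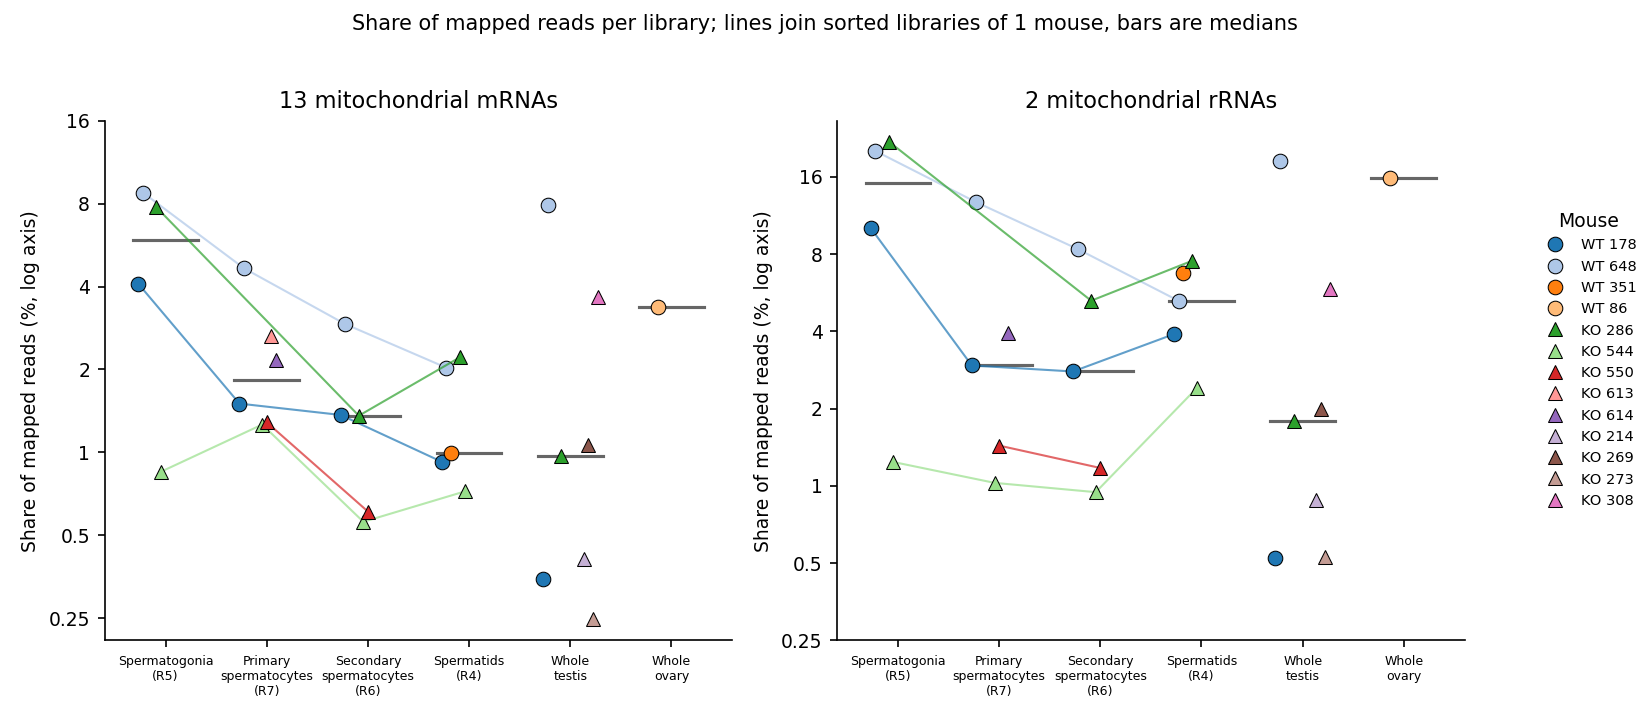
Share of all mapped reads (percent, log axis) held by the 13 mitochondrial mRNAs and by the 2 rRNAs in each library, by sorted stage, whole testis and ovary. Points are libraries, lines join the sorted libraries of 1 mouse, and bars are medians. Spermatogonia have the highest median mRNA share of the sorted stages (5.93%), and whole testes range from 0.248% to 7.93%.

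Set within each mouse, the late stages lay below the early ones, although the order of single stages differed between mice. Late stages (secondary spermatocytes and spermatids) held a smaller mRNA share than early stages (spermatogonia and primary spermatocytes) in 5 of 5 mice that gave both. The early share was 2.21 times the late share in mouse 178, 2.63 times in 648, 1.63 times in 544, 4.47 times in 286 and 2.11 times in 550. These compare unlike stages: early was spermatogonia alone in 286. In 550 early was primary spermatocytes alone and late was secondary spermatocytes alone. The mean difference was -1.30 on the log2 scale, a late share of 0.407 times the early one. Over the 1296 arrangements of stages within mice, the exact two-sided permutation test gave p = 0.000772, the smallest these arrangements allow (0.0023 adjusted over the 3 tests made on this share). In the WT mice alone the difference was -1.27, with an exact permutation p of 0.0556, the smallest that these 2 mice allow, so they could not reach the threshold. Without the R5 library of mouse 544 it was -1.35.

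The order of the genes by level was much the same in the sorted and testis libraries without 613. In 613 mt-Nd4l stood at 1988 RPKM, and in the ovary mt-Atp8 ranked above mt-Co2. Over 19 sorted libraries, without 613, the mean level was 5684 RPKM for mt-Co2 and 5342 RPKM for mt-Co1, then 3831 RPKM for mt-Co3 and 2863 RPKM for mt-Atp6. The levels of mt-Nd4, mt-Nd1, mt-Cytb, mt-Nd5 and mt-Nd2 were 1420, 1322, 1255, 850 and 618 RPKM. The levels of mt-Nd6, mt-Atp8, mt-Nd3 and mt-Nd4l were 375, 270, 76.5 and 68.7 RPKM. Standard deviations were of the size of these means (for mt-Co2, 5568 RPKM, and for mt-Cytb, 1378 RPKM), so the levels of neighbours in this order overlapped across libraries. Within a library the order was tighter. Leaving out 613, mt-Nd2 ranked 9 of 13 in each sorted and testis library, and mt-Nd5 ranked 7 or 8. At the ends, the highest mRNA was mt-Co1 or mt-Co2 in every one of the 28 libraries, and the lowest was mt-Nd3 or mt-Nd4l.

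Grouped by complex, complex IV mRNAs held 52.0% to 78.1% of the mitochondrial mRNA reads in the 26 testis and germ cell libraries without 613. Complex I, with more genes, held 13.02% to 30.5%, complex V 3.92% to 11.4% and complex III 2.69% to 9.61%. The library of KO mouse 613 stood apart, with 36.5% for complex IV, 47.8% for complex I, 14.1% for complex III and 1.61% for complex V.

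**Figure D2:**
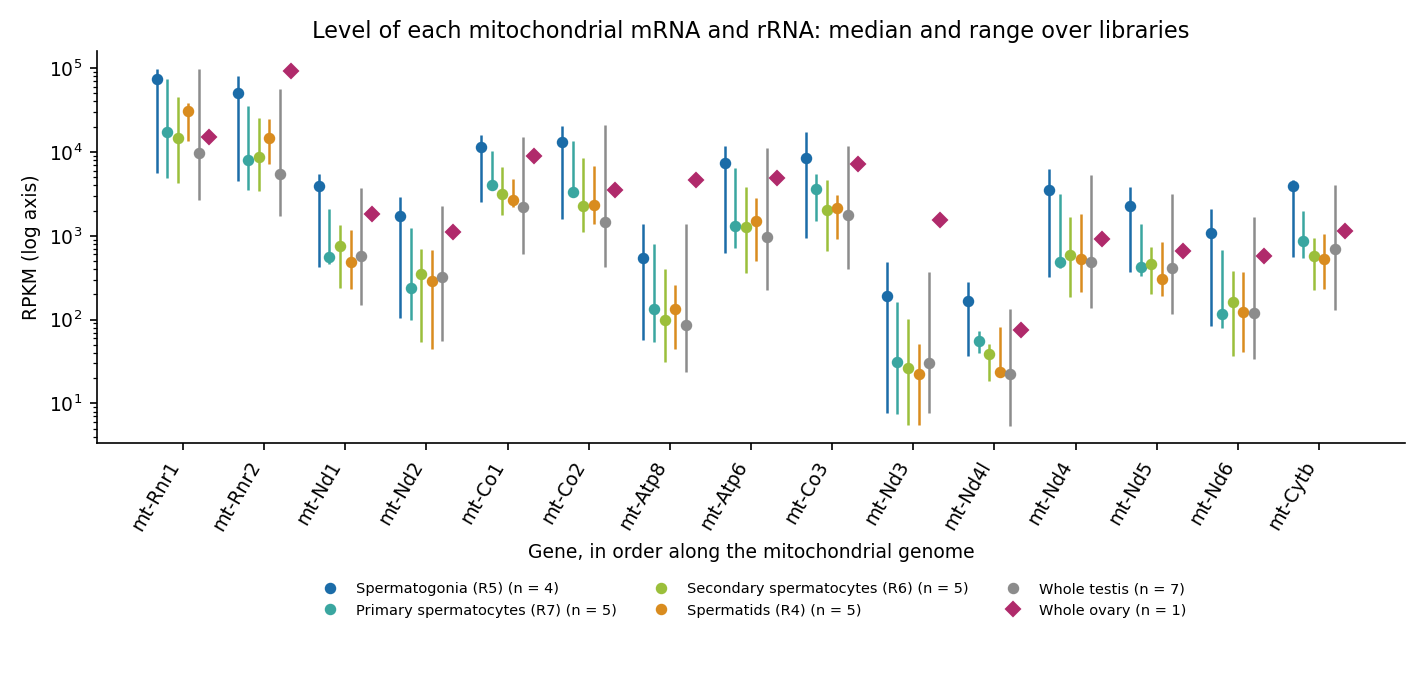
Median and range of RPKM (log axis) of the 13 mRNAs and 2 rRNAs in genome order, by sorted stage, whole testis and ovary, without the library of mouse 613. Points are medians over libraries, lines run from the lowest to the highest library, and the diamond is the single ovary. Spermatogonia have the highest median of the 4 sorted stages for each gene, and the order from mt-Co1 and mt-Co2 down to mt-Nd3 and mt-Nd4l recurs in each stage.

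Per gene, the late stages were compared with the early ones by limma over all 20 sorted libraries, in 8 groups of genotype and stage, on log2(RPKM + 0.1). All 13 mRNAs were lower in the late stages, with a median difference of -1.41 against -0.15 over all 20376 genes tested. By adjusted p, 4 of the 13 fell (mt-Cytb, mt-Nd5, mt-Co1 and mt-Nd1) and none rose, beside 20.5% of all genes that fell and 15.6% that rose. At an unadjusted p under 0.05 there were 10 of 13, beside 9240 of all 20376 genes in either direction. With the mouse as a replicate block, 13 of 13 fell, with adjusted p from 0.00051 to 0.0341 (limma), beside 27.5% of all genes.

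The gene of complex III, mt-Cytb (chrM:14145-15288), had the largest difference. In spermatogonia it stood at 3383, 4585, 4523 and 551 RPKM in mice 178, 648, 286 and 544. In primary spermatocytes it stood at 546, 1967, 872, 623, 3265 and 1339 RPKM in mice 178, 648, 544, 550, 613 and 614. Mouse 544 was thus far below the other spermatogonia, and only the spermatogonia of the other 3 mice lay above all primary spermatocytes. In secondary spermatocytes it was 578, 937, 737, 318 and 227 RPKM in mice 178, 648, 286, 544 and 550. In spermatids it was 527, 234, 581, 1055 and 253 RPKM in mice 178, 351, 648, 286 and 544. Apart from 286 spermatids, no late library exceeded 937 RPKM, and the late and early ranges overlapped. The fitted difference was -1.77 ± 0.48 (SE, log2), a decrease of 3.41-fold (limma adjusted p = 0.00892). It lost the threshold without mouse 648 (-1.63, adjusted p = 0.0869 by limma).

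The catalytic subunit of complex IV, mt-Co1 (chrM:5328-6872), was the highest of the 13 mRNAs in 19 of the 28 libraries. In spermatogonia it was 8153, 15706, 14664 and 2546 RPKM in mice 178, 648, 286 and 544. In primary spermatocytes it was 4044, 10226, 3751, 3966, 4618 and 5140 RPKM in mice 178, 648, 544, 550, 613 and 614. The primary spermatocytes of 648 exceeded the spermatogonia of 178, so these stages overlapped. In secondary spermatocytes it was 3421, 6607, 3165, 1769 and 1999 RPKM in mice 178, 648, 286, 544 and 550. In spermatids it was 2186, 2661, 4307, 4687 and 2506 RPKM in mice 178, 351, 648, 286 and 544. The highest late value, 6607 RPKM, lay inside the early range, while 4 late libraries (1769, 1999, 2186 and 2506 RPKM) lay below every early one. The fitted difference was -1.04 ± 0.38 (SE, log2), a decrease of 2.06-fold (limma adjusted p = 0.0401).

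Both complex I genes that passed showed the same outline. In spermatogonia mt-Nd1 (chrM:2751-3707) was 2557, 5289, 5473 and 423 RPKM in mice 178, 648, 286 and 544. It ranged over 459 to 3084 RPKM in primary spermatocytes, 237 to 1339 RPKM in secondary spermatocytes and 233 to 1159 RPKM in spermatids. The highest primary value was again that of mouse 613. Its difference was -1.47 ± 0.54 (SE, log2; limma adjusted p = 0.0414). In the same spermatogonia mt-Nd5 (chrM:11742-13565) was 1354, 3802, 3141 and 374 RPKM, and over all late libraries it ranged from 189 to 838 RPKM. Its difference was -1.41 ± 0.50 (SE, log2; limma adjusted p = 0.0355).

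The other 9 mRNAs had differences between -0.98 (mt-Atp6) and -1.60 (mt-Nd4l), with adjusted p from 0.0519 to 0.197 (limma). Within mice, every one of the 13 mRNAs was lower in the late stages in 5 of 5 mice, with mean differences from -1.68 to -1.16. The calls changed with single mice, and so did the number of all genes that fell. Without mouse 648 no mRNA passed (1 at an unadjusted p under 0.05), beside 2415 of 20472 genes. Without 178, 351 or 550 only 1 did, beside 2375 of 20482, 3760 of 20384 and 3474 of 20355 genes. Without 613, where mt-Nd4l stood at 1988 RPKM, mt-Cytb, mt-Co1, mt-Co3, mt-Nd1, mt-Nd4l and mt-Nd5 passed, beside 5066 of 23544 genes. In that fit mt-Nd4l fell by 1.28 (limma adjusted p = 0.0127). Without the R5 library of mouse 544 all 13 passed, beside 4465 of 20358 genes. With WT libraries alone 2 did, beside 2056 of 23051 genes. With no filter on low values 1 passed, beside 3955 of 28677 genes. With transcripts in place of genes 1 passed, beside 9334 of 63775 transcripts. Every one of these fits gave all 13 differences a negative sign.

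**Figure D3:**
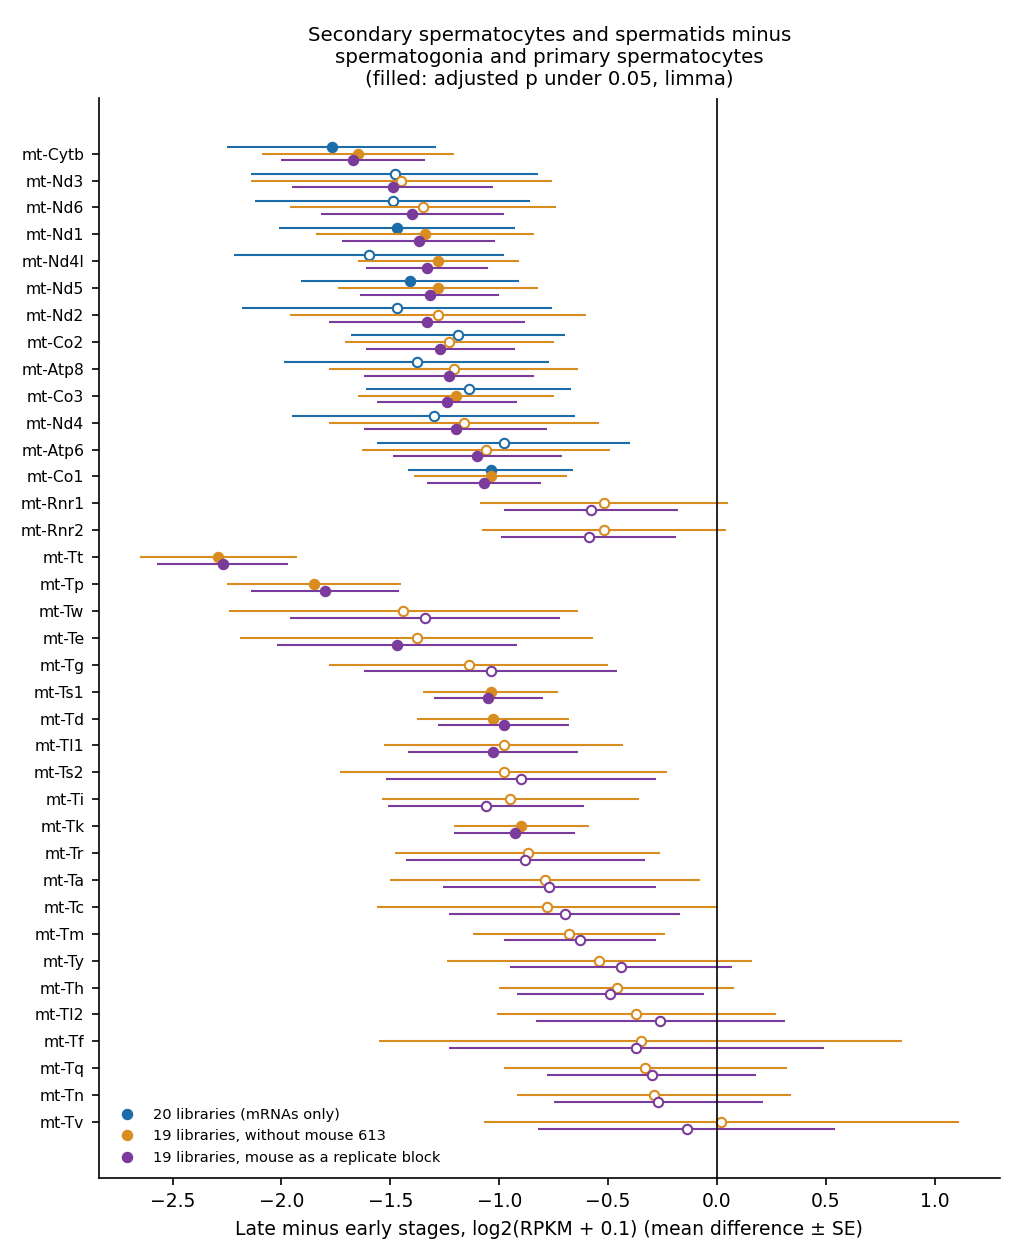
Late minus early stages (log2 difference ± SE) for all 37 mitochondrial genes by limma, in the fit of 20 libraries, the fit without mouse 613, and that fit with the mouse as a replicate block. Filled points have an adjusted p under 0.05. Each mRNA lies below 0, both rRNAs lie nearer to 0 (-0.52), and the tRNAs spread from -2.29 to 0.02.

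The 2 rRNAs, which are the most abundant rows of the chromosome, were less different between stages. They held 10.1%, 20.2%, 21.9% and 1.24% of reads in spermatogonia of mice 178, 648, 286 and 544. In spermatids the share was 3.90%, 6.74%, 5.26%, 7.54% and 2.41% in mice 178, 351, 648, 286 and 544. The spermatid values lay inside the wide range of the spermatogonia. In the fit without mouse 613 both rRNAs had a late minus early difference of -0.52, with adjusted p of 0.483 and 0.487 (limma), and -0.58 and -0.59 with the replicate block (0.230 and 0.225). Within mice, the rRNA share was lower in late stages in 4 of 5 mice and higher in 544 (0.42, log2).

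The ratio of rRNA to mRNA reads was higher in late than in early stages in each of the 5 mice, by 0.12 to 1.13 on the log2 scale, which was not tested. In spermatids it was 4.23, 6.78, 2.59, 3.40 and 3.34 in mice 178, 351, 648, 286 and 544. These values exceeded each mouse's own earlier stages in 178 (1.96 to 2.47) and 544 (0.815 to 1.69), and lay within them in 648 (2.30 to 2.87) and 286 (2.83 to 3.88). Mature mitochondrial rRNAs carry only short tails, and the libraries were made from polyA RNA, so this ratio compares captured RNA and not the amounts in the cell. Between the 2 rRNAs, mt-Rnr1 (chrM:70-1024) exceeded mt-Rnr2 (chrM:1094-2675) in RPKM by 1.204 to 2.16 times in all 26 testis and germ cell libraries that had values.

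The tRNA rows held few reads, and nearly all of these were in mt-Ts1. Averaged over 27 libraries, mt-Ts1 held 0.0181% of all mapped reads, mt-Te (glutamate) 0.000777%, mt-Tl1 (leucine) 0.000309%, mt-Tv (valine) 0.00023% and mt-Tf (phenylalanine) 8.36e-05%. In the 26 testis and germ cell libraries mt-Ts1 made up 81.1% to 98.5% of tRNA reads. It reached 8483 RPKM in the spermatogonia of mouse 178, near the 8153 RPKM of mt-Co1 beside it, while mt-Tf was listed at 0 in 15 libraries. The tRNA rows are 59 to 75 bases long and shorter than the study's reads, and how a read that runs past a row was counted is not given in the sources used here.

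In the fit without mouse 613, 5 of 22 tRNAs fell from early to late stages and none rose, beside 21.5% of all genes that fell and 18.7% that rose. The median of the 22 was -0.89, against -0.05 over all genes. The threonine tRNA mt-Tt fell by 2.29 (log2, limma adjusted p = 0.000331) and the proline tRNA mt-Tp, next to it, by 1.85 (limma adjusted p = 0.00208). In spermatogonia mt-Tt was 19.2, 33.5, 6.09 and 2.002 RPKM in mice 178, 648, 286 and 544, and in spermatids it was 0.319 to 1.45 RPKM. The spermatid values all lay below the spermatogonia. The tRNA with most reads, mt-Ts1, fell by 1.04 (limma adjusted p = 0.014), and mt-Td and mt-Tk by 1.03 and 0.90 (limma adjusted p = 0.0277 and 0.0296). In the late libraries mt-Tp was at 0.319 to 3.19 RPKM, mt-Td at 0.292 to 4.61 RPKM and mt-Tk at 0.298 to 2.21 RPKM. On rows this short, such values and those of mt-Tt in spermatids stand for few reads, so these calls lie near the floor. With the replicate block mt-Te and mt-Tl1 were called as well, which made 7, beside 27.5% of all genes that fell in that fit.

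Taken one step at a time, no mRNA passed. From spermatogonia to primary spermatocytes the median of the 13 was -1.14 against -0.28 over all genes. By limma 0 of 13 passed, beside 21.4% of all genes that fell and 9.08% that rose. An unadjusted p under 0.05 was reached by 0 of 13, beside 8268 of 20376 genes in either direction. This step depended on mouse 544. Without it 3 mRNAs fell (mt-Atp6, mt-Nd3, mt-Nd6), beside 19.5% of all genes. Without its R5 library 7 did (these and mt-Co3, mt-Cytb, mt-Nd1, mt-Nd5), beside 21.2% of all genes. In the fit without mouse 613, the tRNAs mt-Tt and mt-Th fell by 1.56 and 2.29 (limma adjusted p = 0.0277 and 0.0323), beside 22.8% of all genes. In primary spermatocytes mt-Th was at 0 to 0.867 RPKM, which on so short a row is few reads or none. With the block added, mt-Nd5 and mt-Nd6 fell by 1.29 and 1.60, beside 26.6% of all genes.

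From primary to secondary spermatocytes the median of the mRNAs was -0.75 against 0.19 over all genes. By limma 0 of 13 passed, beside 0.172% of all genes that fell and 2.54% that rose. With an unadjusted p under 0.05 there were 0 of 13, beside 4281 of 20376 genes in either direction. From secondary spermatocytes to spermatids the median was -0.04 against -0.33. Again 0 of 13 passed, beside 0.525% of all genes that fell and 0.00491% that rose. None of the 13 had an unadjusted p under 0.05, beside 3476 of 20376 genes in either direction that did. At this last step mt-Rnr1 and mt-Rnr2 had differences of 0.72 and 0.61 in the fit without mouse 613, and neither passed (limma adjusted p = 0.618 and 0.673). With the replicate block these steps still gave 0 of 13 mRNAs, while 4.52% and 9.43% of all genes fell, and 14.5% rose at the first.

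The nuclear genes that serve the mitochondrial genome were counted from 2 lists. For replication and copy number, 7 of 10 genes fell from early to late stages and none rose (median -1.21, against -0.15 over all genes), beside 20.5% of all genes that fell and 15.6% that rose. Mgme1, an exonuclease that trims replicating DNA ends, fell by 2.87 (limma adjusted p = 0.000182). Twnk, the replicative helicase, fell by 1.70 (limma adjusted p = 0.000696). Dguok, which makes purine nucleotides for this DNA, fell by 2.03 (limma adjusted p = 0.000857). For transcription and RNA processing, 10 of 30 genes fell and none rose (median -0.48). Tefm, the transcription elongation factor, fell by 1.86 (limma adjusted p = 0.00197). Lrpprc, which stabilises the mRNAs, fell by 1.42 (limma adjusted p = 0.00426), and Fastkd1, a regulator of mitochondrial RNA, by 2.37 (limma adjusted p = 0.00119).

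At the step from spermatogonia to primary spermatocytes these lists moved in both directions. In the replication list 5 genes fell and 1 rose (median -1.47), beside 21.4% of all genes that fell and 9.08% that rose. Dguok fell by 2.27 and Top1mt, the mitochondrial topoisomerase, by 2.54 (limma adjusted p = 0.00474 and 0.00696). Ssbp1, the single-strand DNA binding protein, fell by 2.27 (limma adjusted p = 0.00885), while Tk2, a nucleoside kinase, rose by 1.52 (limma adjusted p = 0.0128). In the transcription and processing list 2 rose and 2 fell (median 0.22). Ptcd1 and Ptcd2, RNA-binding proteins, rose by 1.94 and 1.5 (limma adjusted p = 0.00158 and 0.00963). Hsd17b10 and Trmt10c, partners in the enzyme that cuts the 5′ ends of the tRNAs, fell by 3.54 and 1.11 (limma adjusted p = 0.00161 and 0.0481). No gene of either list passed by limma at the 2 later steps. With the replicate block, 2 and 3 genes of the replication list fell at these steps, and in the other list 1 rose and 3 fell, then 4 fell. Of all genes, 4.52% fell and 14.5% rose at the first of these steps under the block, and 9.43% fell at the second.

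Genotype did not separate the sorted libraries. For each mouse, the mRNA share was expressed as the mean deviation from its stage means on the log2 scale. WT mice 178, 351 and 648 lay at -0.13, -0.32 and 1.11. KO mice 286, 544, 550, 613 and 614 lay at 0.69, -1.17, -0.77, 0.40 and 0.11. The genotypes overlapped, and the highest and the lowest mouse were 648 and 544. KO minus WT was -0.37, with an exact two-sided permutation p of 0.554 over 56 arrangements (smallest possible 0.0179). Without mouse 648 the difference turned to 0.12.

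By limma, 0 of 13 mRNAs passed for KO against WT in sorted cells, beside 0.00982% of all genes that were lower. An unadjusted p under 0.05 was reached by 5 of 13, beside 1679 of all 20376 genes in either direction. The median was -1.07 against 0.24 over all genes, and 12 of 13 were negative. This size rested on mouse 544, since without it the median was 0.02. Without KO mouse 286, 6 mRNAs were lower in KO (mt-Atp6, mt-Co2, mt-Co3, mt-Nd2, mt-Nd3, mt-Nd6, differences of -3.09 to -1.80, limma adjusted p from 0.0109 to 0.0489), beside 0.246% of all genes that were lower in that fit and 4.91% that were higher. Without WT mouse 648 none passed. KO mice 544 and 550 were in another set of libraries than the WT mice, and set and genotype cannot be told apart for them.

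Whole testes spread widely. The mRNA share was 0.347% and 7.93% in WT mice 178 and 648. In KO mice 214, 269, 273, 286 and 308 it was 0.409%, 1.06%, 0.248%, 0.973% and 3.66%. The 2 WT testes lay on both sides of most KO testes, and the genotypes overlapped. The means were 4.14% ± 5.36 (SD, n = 2) in WT and 1.27% ± 1.38 (SD, n = 5) in KO. On the log2 scale KO minus WT was -1.01, with an exact two-sided permutation p of 0.667 over 21 arrangements (smallest possible 0.0476). Without mouse 648, which leaves 1 WT testis and 1 set of libraries, the difference was 1.25 in the other direction.

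By limma none of the mRNAs, rRNAs or tRNAs passed between testes of the 2 genotypes. By adjusted p, 0.00414% of all genes were called higher in KO and none lower. An unadjusted p under 0.05 was reached by 0 of 13 mRNAs, 0 of 2 rRNAs and 5 of 22 tRNAs. Of all genes, 2748 of 24170 reached it in either direction. The median of the mRNAs was -1.15 against 0.40 over all genes, 1.25 without mouse 648 and -3.20 without mouse 178. In each of these fits the WT group is 1 testis, and the spread comes from the KO testes alone. Without 178 a single tRNA passed, mt-Tf, which was at 171 RPKM in mouse 648, at 0.363 RPKM in mouse 286 and listed at 0 in the others.

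The summed spermatid markers split the testes in the opposite direction to the mRNA share. The sum of the 6 spermatid markers was 4792, 8705 and 10683 RPKM in the testes of mice 178, 214 and 273, which had the 3 lowest mRNA shares. It was 27.1, 33.6, 8.56 and 73.9 RPKM in mice 269, 286, 308 and 648, which had the 4 highest. All 6 markers were detected in each of these testes except Prm2, listed at 0 in mouse 308. The sum of the primary spermatocyte markers was 2658 and 2369 RPKM in mice 648 and 308, with the 2 highest mRNA shares, 988 and 996 RPKM in 269 and 286, and 267, 660 and 671 RPKM in 178, 214 and 273. The part of cell composition, or of the age of the mice, in the mitochondrial share was not tested. In the spermatid gate the 3 libraries with a marker sum of 7290 RPKM or more had shares of 0.721% to 0.995%, and the other 2 had 2.03% and 2.22%. There too, most of the gap in the sum came from Prm1, Prm2, Tnp1 and Tnp2.

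**Figure D4:**
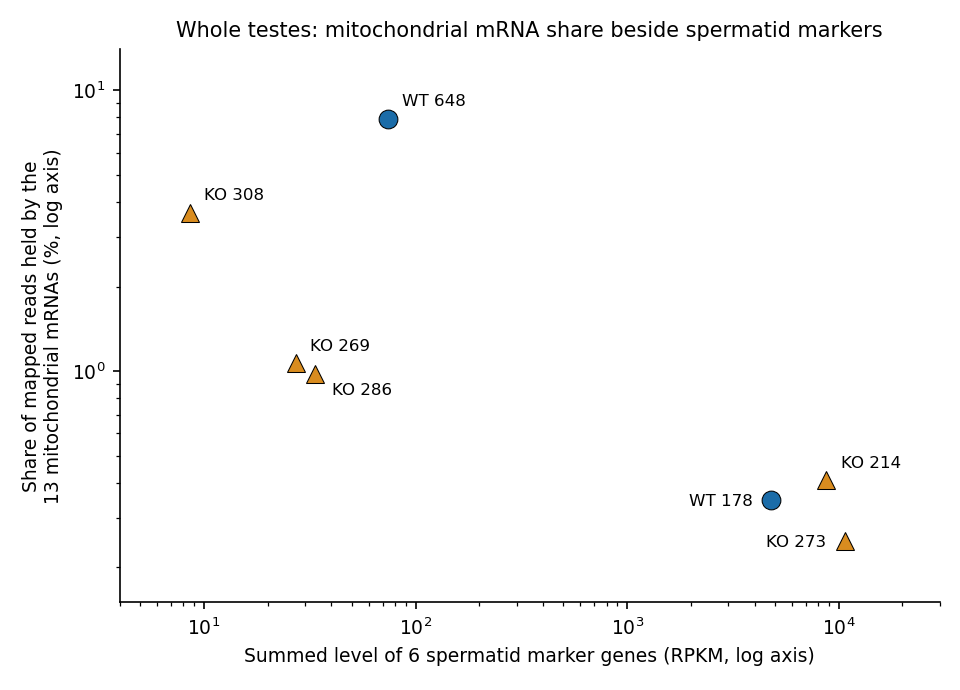
Share of mapped reads held by the 13 mitochondrial mRNAs (percent, log axis) against the summed RPKM of 6 spermatid markers (log axis) in the 7 whole testes, each point 1 mouse. The 3 testes with 4792 to 10683 RPKM of markers lie at 0.248% to 0.409%, and the 4 testes with 8.56 to 73.9 RPKM lie at 0.973% to 7.93%. Most of this split in the sum comes from Prm1, Prm2, Tnp1 and Tnp2.

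Testis and sorted cells of the same mouse were set side by side for 3 mice. In mouse 178 the testis held 0.347% against 0.924% to 4.10% in the sorted stages, and 13 of 13 mRNAs were below every sorted library. In KO mouse 286 it held 0.973% against 1.36% to 7.76%, with 12 of 13 mRNAs below. In mouse 648 the testis, at 7.93%, lay inside the 2.03% to 8.78% of the sorted stages, with 2 mRNAs above all of them. Against the mean of the sorted stages the log2 differences were -2.27, -1.55 and 1.01. Each rests on 1 testis, and no test was made.

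The single ovary held 3.37% of its reads in mitochondrial mRNAs and 15.8% in rRNAs. Its mRNA share lay inside the range of the testes, and its rRNA share was exceeded by 1 testis, that of mouse 648 (18.4%). By gene, 2 of 13 mRNAs were above all 7 testes and none below, beside 43.5% of all genes above and 20.1% below. These were mt-Atp8, at 4594 RPKM against 23.8 to 1368 RPKM (median 86.8), and mt-Nd3, at 1562 RPKM against 7.70 to 365 RPKM (median 30.3). Of the rRNAs mt-Rnr2 was above, at 91079 RPKM against 1709 to 56710 RPKM, while mt-Rnr1, at 15036 RPKM, lay inside 2669 to 98443 RPKM. Of the tRNAs 9 of 22 were above. With 1 ovary there is no replicate, and no test was made.

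Leaving out mouse 613, the ratio in the ovary lay outside that of all testis and germ cell libraries for the 4 pairs that follow. The same held for mt-Nd6 to mt-Nd5, given below. The ratio of mt-Rnr1 to mt-Rnr2 was 0.165, against 1.204 to 2.16. The ratio of mt-Atp8 to mt-Atp6 was 0.933, against 0.0556 to 0.125, and that of mt-Nd3 to mt-Co3 was 0.220, against 0.00469 to 0.0308. For mt-Ts1 to mt-Co1 it was 0.0235, against 0.110 to 1.10, and mt-Ts1 made up 27.3% of tRNA reads. The ranges leave out mouse 613, where mt-Atp8 to mt-Atp6 was 1.22. The ovary belonged to the same set of libraries as KO mice 544 and 550. For 3 of these 4 pairs, the ratios of 544 and 550 lay in the range of the other mice. For mt-Nd3 to mt-Co3 their libraries lay at 0.00469 to 0.00813, below every other mouse (0.00862 or more), except the secondary spermatocytes of 544 (0.0102). Tissue and library cannot be told apart with 1 ovary.

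**Figure D5:**
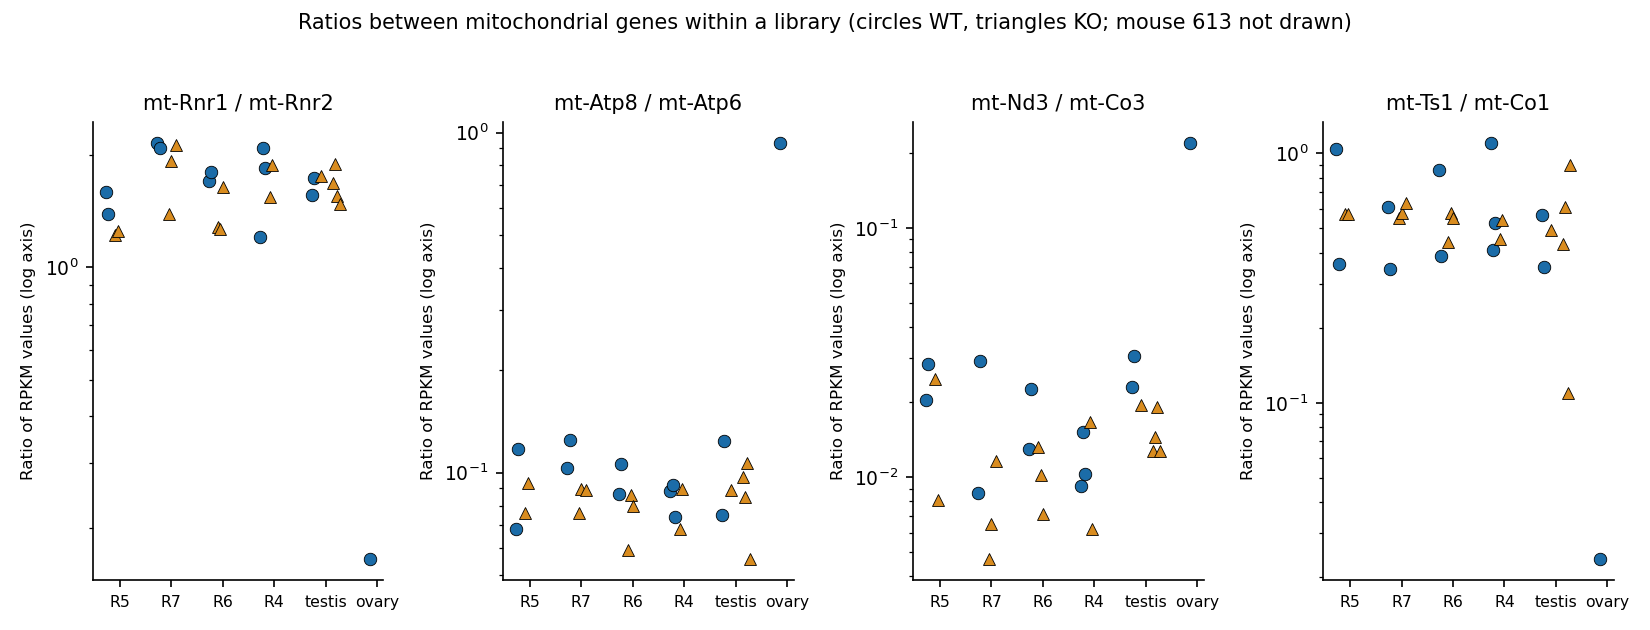
Ratios of RPKM (log axis) between pairs of mitochondrial genes by library: mt-Rnr1 to mt-Rnr2, mt-Atp8 to mt-Atp6, mt-Nd3 to mt-Co3 and mt-Ts1 to mt-Co1. Each point is 1 library, circles WT and triangles KO, and mouse 613 is not drawn. The ovary lies outside the range of the other libraries drawn in each ratio (0.165 against 1.204 to 2.16 for the rRNAs).

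Within the testis and germ cell libraries, some ratios followed single mice. That of mt-Ts1 to mt-Co1 was 0.343 to 0.409 in mouse 648. It was 0.435 or more in the other libraries with values, apart from the testis of 273 (0.110). The levels of mt-Nd4l (chrM:9877-10173) and mt-Nd4, which share 7 bases, stood at a ratio of 0.0232 to 0.0274 in the 5 libraries of mouse 648 and of 0.0362 to 0.131 in the others, apart from 613 (0.747). The ovary, at 0.0824, lay inside that range. The light-strand mRNA mt-Nd6 (chrM:13552-14070) held 0.182 to 0.545 times the level of its neighbour mt-Nd5, and 0.870 times in the ovary. Some rows have close copies in the nuclear genome. Gm10222 on chromosome 1 is identical to mt-Nd4l over its 294 bases and ranged up to 30.9 RPKM. On chromosome 2, Gm13341 matches 97.6% of 672 bases of mt-Co2, and Gm13340 97.6% of 1545 bases of mt-Co1. Reads of mt-Nd4l, mt-Co2 and mt-Co1 may have been shared with these rows, so their values carry that uncertainty.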

How the data were processed

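PolyA RNA was sequenced as paired ends, and the authors mapped reads to Ensembl mouse transcripts (GRCm38) with TopHat2 and deposited RPKM per transcript. Their methods name PEER and quantile normalization. In 27 of 28 columns 93.1% to 94.6% of low values fell on whole reads (tolerance 0.06 reads), so neither is in those columns. In the column of mouse 613 only 13.9% did, so this could not be checked there. Groups came from the labels. The 37 genes and gene lists were chosen with earlier results of these data known. All mitochondrial genes were named, with the top 5 tRNAs by share, and of the nuclear lists up to 3 genes in each direction per step.

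Transcripts were summed by gene, genes averaging under 0.1 RPKM were dropped, and the rest were tested on log2(RPKM + 0.1), a scale that understates the change of low genes, by limma 3.58.1 (R 4.3.3) with a trend and Benjamini-Hochberg adjustment at 0.05 (20376 genes in sorted cells, 24170 in testes). The code was tested on simulated data. Shares were tested by exact permutation (Python 3.11.15, scipy 1.17.1). Libraries of the same mouse are paired by the labels: deviations from group means correlated with a median r of 0.54 over 22 pairs from the same mouse and -0.06 over 151 pairs from different mice. Alternatives were the replicate block, other pseudocounts (0.01 and 1 RPKM), no filter, quantile normalization, rescaling to reads outside the mitochondrial genes, transcripts, WT alone and leaving out each mouse. Fits without the R5 library of mouse 544, the block without mouse 613, and the repeats for ovary and for each mouse's own testis were added after seeing the data. GENCODE M21 identified 90339 transcripts (95.6%).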

Additional observations from a re-analysis of the deposited data

Results flagged for a closer look

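KO primary spermatocytes (4 libraries) and KO testes (5 libraries) were searched for values far from the rest of their group. In 33 such sets of values 16 were found, where chance would mark about 1 in 20. The testis of KO mouse 308 accounts for 14 of them. These come from 1 library and are not independent. It held 3.66% of reads in mitochondrial mRNAs (next highest KO testis 1.06%), 5.85% in rRNAs and 0.0454% in tRNAs. Among complex I genes it had the highest KO testis value for mt-Nd1 (2068 RPKM), mt-Nd2 (1335 RPKM), mt-Nd4 (2351 RPKM), mt-Nd4l (133 RPKM), mt-Nd5 (1807 RPKM) and mt-Nd6 (713.5 RPKM). The same held for mt-Cytb (3072 RPKM), mt-Co2 (7498 RPKM), mt-Atp6 (5348 RPKM), mt-Atp8 (297 RPKM) and mt-Rnr2 (19517 RPKM). Its sum of spermatid markers was the lowest of the testes, at 8.56 RPKM, while its Sertoli, spermatogonial and stromal marker sums were the highest of the 7 testes, at 423, 381 and 117 RPKM, and their part in these values was not tested.

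The other values belonged to KO primary spermatocytes. In mouse 614, mt-Co3 stood at 4781 RPKM (next 1597 RPKM). In mouse 613, mt-Nd4l stood at 1988 RPKM (next 69.2 RPKM), in the column without whole-read steps.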

How the results depend on the processing

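The mRNA share was lower in late than in early stages under each alternative run, with differences between -1.44 and -1.08 on the log2 scale when single mice or the R5 library of mouse 544 were left out (exact permutation p of 0.00154 or 0.00463). In the WT mice alone it was -1.27 with an exact permutation p of 0.0556, the smallest that design allows, so it could not pass. With no replicate block, exchanging stages over all sorted libraries, it was -1.15 (permutation p = 0.0213). The number of mRNAs lower in late stages, 4 of 13, was 13 with the mouse as a replicate block, with or without mouse 613 (27.5% of all genes). It was 2 in the WT libraries alone (2056 of 23051 genes). It was 1 with no filter on low values or with transcripts as the features (3955 of 28677 and 9334 of 63775). Leaving out a mouse, or the R5 library of mouse 544, gave 0 to 13. In these fits 2375 of 20482 genes (without 178) to 5066 of 23544 genes (without 613) fell. From spermatogonia to primary spermatocytes the count of 0 became 2 under the replicate block without mouse 613 (26.6% of all genes). It was 1 in the WT libraries alone (4143 of 23051 genes). It was 0 to 7 when a mouse or that library was left out, with 1648 (without 648) to 5364 (without 613) genes falling. The replicate block changed no other count of mRNAs. At the 2 later steps every setting gave 0. For genotype, leaving out a mouse gave a difference in share of -0.70 to 0.12 in sorted cells and -3.26 to 1.25 in whole testis. Both turned positive without mouse 648. The count of mRNAs lower in KO sorted cells was 0 to 6, while 0 (without 178) to 50 (without 286) of all genes were lower. The 2 mRNAs above all testes in the ovary were 2 to 4 when a testis was left out, with 4 without mouse 648. Apart from settings that drop samples or features, the causes were not tested.

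Depth did not limit the mRNAs, whose share had narrow counting intervals in each library with a known depth. It limited the tRNAs, where the rows listed at 0 allow up to 3 reads. Precision was set by the number of mice, 2 to 4 in each group of genotype and stage.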
